A study of Gallus gallus with 2 samples.

Results

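Genes of the nuclear pore and of nuclear transport were measured in 6C2, a transformed line of chicken erythrocyte precursors, by sequencing of total RNA. The members were the rows of the gene table whose symbol named a nucleoporin, an importin, an exportin, a transportin, Ran or a Ran-binding protein, or an mRNA export factor. Members were taken by symbol and not by level, and the longest model was used where a symbol repeated. This gave 57 genes among the 16464 rows analysed, from 58 rows that matched, since XPO1 had a second, shorter model. The series held 2 samples of 1 group, here replicate 1 and replicate 2. Both are given as cycling cells of this erythroleukemia line, halted at the stage of the erythroid colony-forming unit and with no treatment named, so the series describes 1 line with no second condition. Separate cultures are not stated, and the spread between the samples may be technical. No test between groups was possible.

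The nuclear pore is a ring of many protein copies set in the nuclear envelope. Scaffold nucleoporins of the Y complex and the inner ring hold its shape, and nucleoporins with phenylalanine-glycine repeats fill the channel and bind passing receptors. Proteins larger than the pore's passive limit cross it with receptors of the importin beta family, and the small GTPase Ran sets the direction: import receptors release cargo when they bind Ran-GTP in the nucleus, and exportins bind cargo together with it. Bulk mRNA leaves by another route, in which the THO complex packs the transcript and the NXF1-NXT heterodimer carries it. Red cell precursors shrink and condense their nucleus during maturation, and in mouse erythroblasts the export receptor Xpo7 has a known part in that step.

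Reads summed to 40064443 in replicate 1 and to 30668939 in replicate 2. Small RNAs took 32.9% of these reads in replicate 1 and 34.4% in replicate 2, which lowers the level of every other gene on any scale set by library size. The labelled cell type was set beside markers, which were chosen with earlier results of these data known. The 7 erythroid markers measured, HBAA, HBAD, TFRC, GFI1B, LMO2, CA2 and BPGM, all stood at 1 or more in both samples by RPKM, the read count scaled to the length of the gene model and to the size of the library, with means between 24.0 for CA2 and 1168 for the alpha globin gene HBAA. Of 8 markers of other lineages, namely CD3D, CD3E and CD247 (T cells), BLNK and CD79B (B cells), CD14 and CSF1R (macrophages) and COL1A2 (fibroblasts), CD3E alone passed that level, at 2.42 and 2.91, and COL1A2 was at 0.88 and 1.57. Their summed RPKM was 4.48 in replicate 1 and 5.92 in replicate 2, and none of them was at 0 reads in both samples. Of 12441 named genes that were neither small RNAs nor mitochondrial, 60.4% stood at 1 RPKM or more in both samples.

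The 57 genes took 342297 reads, or 0.854% of all reads, in replicate 1 and 262277 reads, or 0.855%, in replicate 2. Detection was set at 1 RPKM or more in each sample. By this mark 53 of the 57 genes were detected, or 93.0%, where 60.4% of 12441 named genes that were neither small RNAs nor mitochondrial passed, and 52.6% of all rows. In such bulk samples, fewer cells with a transcript and less of it per cell cannot be told apart. The median level was 27.9 RPKM over the 57 genes and 4.29 RPKM over the named genes. In log2(RPKM + 1) these medians were 4.85 and 2.40. A total of 46 of the 57 genes reached a mean of 10 RPKM and 6 reached 100, or 80.7% and 10.5%. Of the named genes, 36.1% reached 10 and 4.20% reached 100. By rank, 8 of the 57 lay above 95% of named genes and 17 lay above 90%, while 6 lay below the median. The models were also longer, with a median of 3017 bases against 1716 bases for named genes. Among models of at least 1000 bases the detected share was 92.9% for the 56 genes of that length and 63.7% for named genes of that length.

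**Figure D1:**
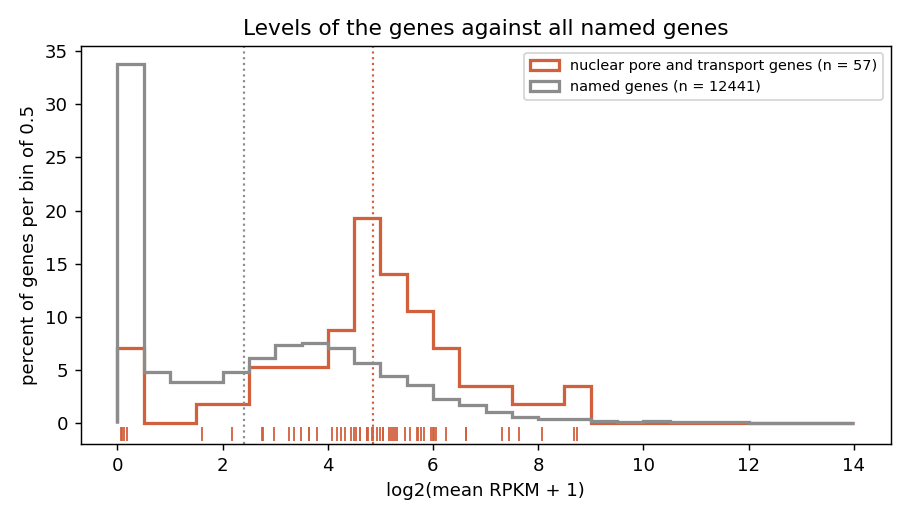
Share of genes (percent per bin of 0.5) by level in log2(mean RPKM + 1), for the 57 nuclear pore and transport genes (orange, each gene also a tick under the axis) and for 12441 named genes (grey), with dotted lines at the medians. The median of the 57 genes lies at 4.85 and that of named genes at 2.40, and 4 of the ticks lie near 0.

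Pore genes and transport genes had like medians and unlike spreads. The 22 nuclear pore genes had a median of 29.3 RPKM, and the 35 transport genes, including Ran and mRNA export factors, had a median of 27.9 RPKM. The detected pore genes ran from 5.73 to 75.4 RPKM, a 13.2-fold range over 21 genes. The detected transport genes ran from 2.04 to 425 RPKM, a 209-fold range over 32 genes. By quartiles the spreads were less unlike, 19.0 to 38.8 RPKM for detected pore genes and 17.8 to 71.6 for detected transport genes. All 6 genes with a mean of at least 100 RPKM as deposited were transport genes, namely RAN, IPO7, THOC7, KPNA2, XPOT and RANBP1. Of these, IPO7 and RANBP1 hold small RNAs of many reads within their spans. THOC7 has the shortest model, of 952 bases, which raises its RPKM for a given count.

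**Figure D2:**
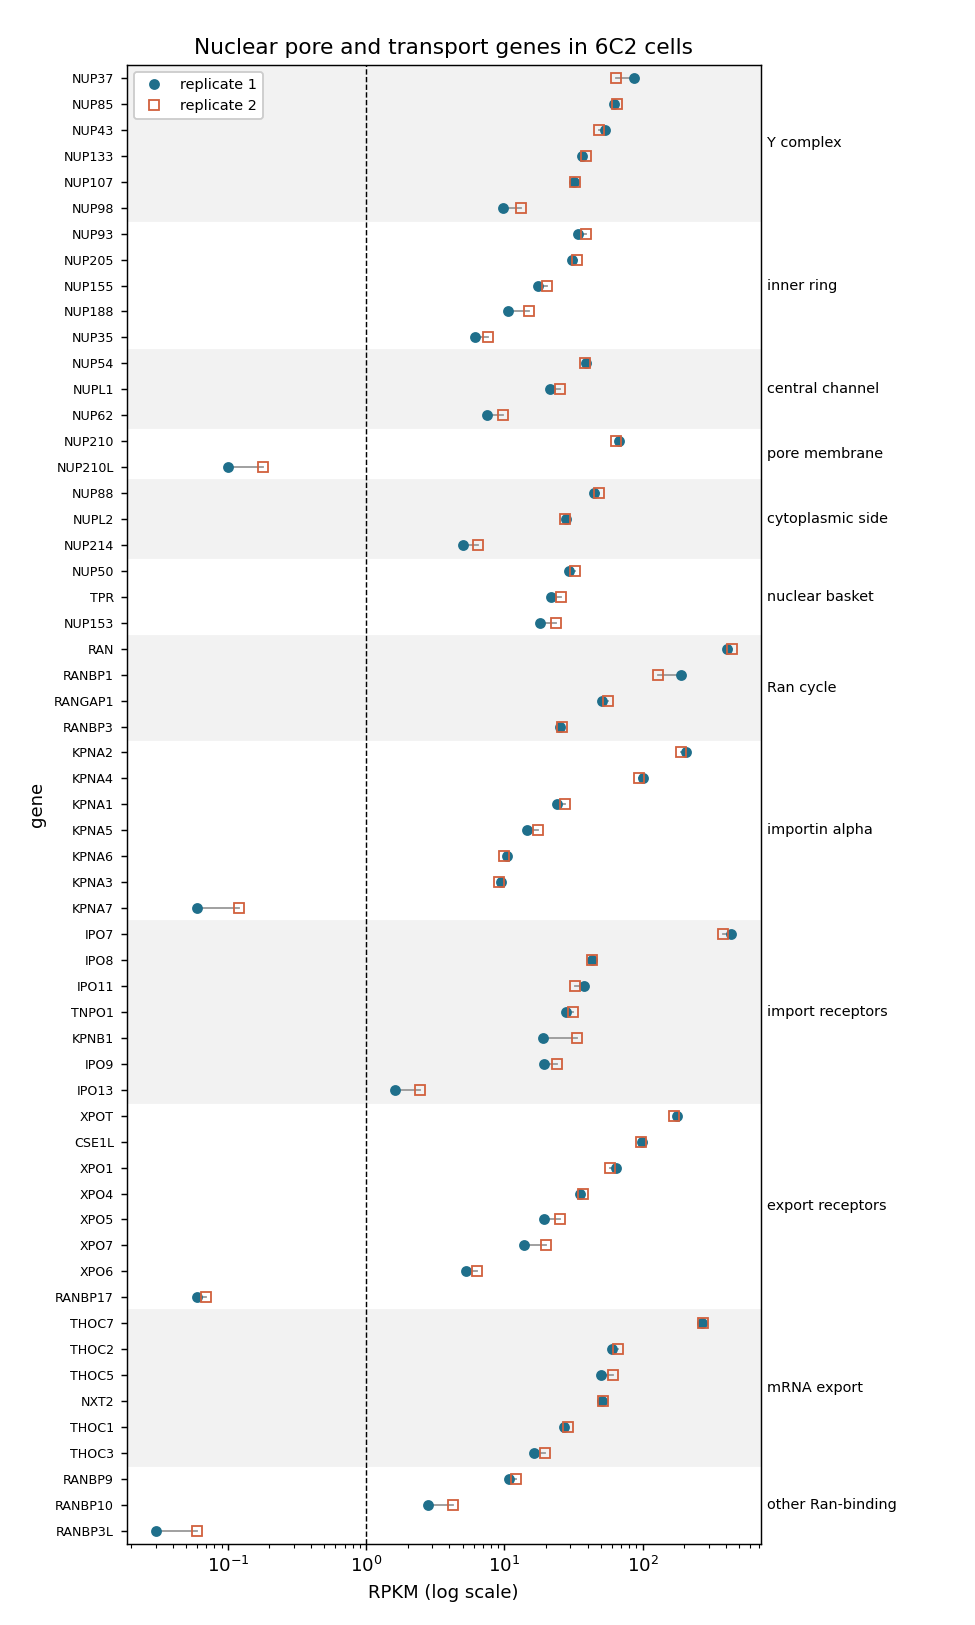
RPKM (log scale) of each of the 57 genes in replicate 1 (filled circles) and replicate 2 (open squares), joined by a line and grouped by role, with a dashed line at 1 RPKM. The 2 samples lie close for most genes, 4 genes lie under the dashed line in both samples, and RAN and IPO7 lie farthest to the right.

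The Y complex, the outer scaffold of the pore, was detected for 6 of 6 members, with a median of 44.2 RPKM. NUP37, a small beta-propeller subunit, was at 86.7 RPKM in replicate 1 and 64.1 in replicate 2. NUP85 was at 62.1 and 65.7, and NUP43, another beta-propeller subunit, at 53.1 and 48.1. NUP133 was at 36.4 and 39.1 RPKM and NUP107 at 32.1 and 32.3. These last subunits stood below the first ones in both samples by RPKM. For NUP37 and NUP133 that order rests on model length, 1269 and 3526 bases, and by reads not divided by length NUP37 was 0.718 times NUP133. NUP43 also had fewer reads than NUP133, 3201 and 2221 against 5103 and 4195. NUP85 had more reads than NUP133 in each sample, 5300 and 4297. NUP98, whose gene in human and mouse encodes a precursor cut into the channel protein NUP98 and the scaffold protein NUP96, was the lowest of the group, at 9.72 and 13.3 RPKM. NUP37 was thus 6.56 times NUP98 by mean RPKM, with 8.92 in replicate 1 and 4.84 in replicate 2, and 1.59 times it by reads not divided by length. NUP160, a large subunit of this complex, was not analysed here.

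The inner ring, which anchors the channel to the pore membrane, was lower, with a median of 19.0 RPKM and 5 of 5 members detected. NUP93, which links the ring to the channel nucleoporins, was at 34.0 and 39.2 RPKM, and NUP205, a large scaffold protein, at 30.6 and 33.3. NUP188, the paralog of NUP205 that binds NUP93 in the same way, was at 10.6 and 15.1 RPKM. NUP205 was therefore 2.49 times NUP188 by mean RPKM, with 2.90 in replicate 1 and 2.21 in replicate 2. NUP188 lies within the span of PPP2R4, a gene on the same strand with 2287 reads in each sample. Whether reads were split or shared between NUP188 and PPP2R4 was not tested, so this ratio is uncertain. NUP155, a membrane-binding scaffold protein, was at 17.5 and 20.5, and NUP35, which bridges NUP155 and NUP93, at 6.17 and 7.56.

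Genes of the central channel trio, whose products form 1 complex, were unequal. NUP54 was at 39.2 RPKM in replicate 1 and 38.4 in replicate 2, and NUPL1, the gene of NUP58, at 21.6 and 25.1. NUP62, the name-giving member of the complex, was at 7.43 and 9.83 RPKM. NUP54 was 4.499 times NUP62 by mean RPKM, with 5.28 in replicate 1 and 3.91 in replicate 2, so the order was the same in both samples. In the pore membrane, NUP210, a glycoprotein of the envelope lumen, was at 67.3 and 63.9 RPKM and ranked 847 among the 12441 named genes. Its relative NUP210L was at 0.10 and 0.18 RPKM, with 23 and 30 reads on a model of 5536 bases.

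On the cytoplasmic face, NUP88 and NUP214, which form 1 complex, stood apart. NUP88 was at 44.3 and 48.2 RPKM, and NUP214, a repeat protein that binds XPO1, was at 4.99 and 6.47 RPKM, the lowest of the detected pore genes. NUP88 was 8.07 times NUP214 by mean RPKM, with 8.87 in replicate 1 and 7.45 in replicate 2, and 2.74 times it by reads not divided by length. NUPL2, a partner of the mRNA export factor GLE1, was at 28.0 and 27.5 RPKM. The nuclear basket was the most even of the pore groups of 3 or more genes, with 1.48-fold between its highest and lowest member. NUP50, which helps importin alpha let go of cargo, was at 29.5 and 32.2 RPKM, TPR, the coiled-coil filament protein, at 21.6 and 25.5, and NUP153, which anchors the basket, at 18.2 and 23.5. RANBP2, the large filament protein of the cytoplasmic face, and AAAS were not analysed here.

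By levels as deposited, Ran and its regulators had the highest median of the role groups, at 106 RPKM over 4 genes. RAN was the highest of the 57 genes by mean, at 409 RPKM in replicate 1 and 441 in replicate 2, or 425 ± 22.1 (SD, n = 2), and ranked 119 among named genes. It lies on the minus strand of chromosome 15 from 3213025 to 3217692, in coordinates of the deposited table. RANBP1, which helps hydrolysis of Ran-GTP on the cytoplasmic side, was at 189 RPKM in replicate 1 and 128 in replicate 2. RANGAP1, which triggers that hydrolysis, was at 50.5 and 56.4, and RANBP3, an export cofactor of XPO1, at 25.4 and 26.3. The group median thus rests on RANBP1 and RANGAP1, the middle genes. The small RNA SNORA77 lies within the span of RANBP1 and had 15.5 and 24.8 times its reads. Whether the RANBP1 counts hold a part of these reads was not tested, so the rank of the group is uncertain. RAN was 7.95 times RANGAP1, with 8.11 in replicate 1 and 7.81 in replicate 2, and 3.78 times it by reads not divided by length. RCC1, the exchange factor that loads Ran with GTP, was not analysed here. The span of RAN lies within that of STX2 on the opposite strand, which had 860 and 600 reads where RAN had 20224 and 16666, so STX2 reads were few beside those of RAN.

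The importin alpha adaptors, which bind the classical nuclear localisation signal and link cargo to importin beta, were led by KPNA2 and KPNA4. KPNA2 was at 207 RPKM in replicate 1 and 189 in replicate 2, and KPNA4 at 99.8 and 94.7. KPNA1 was at 24.1 and 27.2 RPKM, KPNA5 at 14.6 and 17.4, and KPNA3 at 9.39 and 9.21. KPNA6 averaged 10.3 ± 0.375 RPKM (SD, n = 2). In the order KPNA2, KPNA4, KPNA1, KPNA5, KPNA6, KPNA3 no neighbours overlapped between samples. By RPKM, KPNA6 and KPNA3 lay closest, with a ratio of 1.12 in replicate 1 and 1.09 in replicate 2, and the ratio of KPNA2 to KPNA4 was 2.07 and 1.996. Of the summed RPKM of the 7 adaptors, KPNA2 made up 55.5% ± 1.59 and KPNA4 27.3% ± 0.0561 (SD, n = 2 each). KPNA7, an adaptor of oocytes and early embryos in mammals, had 4 and 6 reads, or 0.06 and 0.12 RPKM. The order rests on gene models of unlike length, 2059 bases for KPNA2 and 3637 for KPNA4, and by reads alone, not divided by length, KPNA2 was 1.15 times KPNA4, KPNA5 was 1.12 times KPNA6 and KPNA6 was 1.97 times KPNA3. KPNA4 also holds the small RNA SCARNA7 within its span. Whether the KPNA4 counts hold any of its reads was not tested, so the largest possible subtraction is given. Less all reads of SCARNA7, KPNA4 would stand at 34.8 and 49.5 RPKM and make up 11.6% and 16.4% of the sum, with KPNA2 at 68.9% and 62.5% and a ratio of 5.94 and 3.82. The sources used here do not say how reads matching several adaptors were counted.

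CSE1L, the exportin that returns importin alpha to the cytoplasm, was at 99.4 and 96.6 RPKM. Its level thus lay between those of KPNA2 and KPNA1 in both samples, and near that of KPNA4 as deposited. KPNB1, importin beta itself and the carrier of these adaptors, was at 19.2 RPKM in replicate 1 and 33.4 in replicate 2. Among the 51 nuclear pore and transport genes averaging 5 RPKM or more, it was the one whose values differed by more than 1.5-fold.

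Among import receptors that bind cargo directly, IPO7 stood above the rest. It was at 437 RPKM in replicate 1 and 382 in replicate 2, or 409.7 ± 38.6 (SD, n = 2). IPO7, which carries ribosomal proteins and, as a dimer with importin beta, linker histone, ranked 126 among named genes. The order of IPO7 and RAN differed between samples, so their levels were not separated. IPO8, its close paralog, was at 43.3 and 43.0 RPKM. IPO7 was 9.49 times IPO8 by mean RPKM, with 10.1 in replicate 1 and 8.90 in replicate 2. These levels of IPO7 are as deposited, and the small RNA SNORA23 lies within its span. In replicate 1 IPO7 less all reads of SNORA23 would keep 2761 reads, or 19.1 RPKM, and would then stand below IPO8. In replicate 2 SNORA23 had more reads than IPO7, so the count cannot hold all of them there. Whether it holds a part was not tested. IPO11 was at 37.4 and 32.6 RPKM, TNPO1, the receptor of hnRNP proteins, at 27.8 and 31.2, and IPO9, a carrier of core histones, at 19.5 and 23.9. IPO13, which works in both directions, was the lowest detected receptor, at 1.62 and 2.45. IPO4, IPO5 and TNPO3 were not analysed here.

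Export receptors were led by XPOT, the carrier of tRNA, at 176 RPKM in replicate 1 and 168 in replicate 2. XPO1, the main receptor for leucine-rich export signals, was at 64.3 and 58.5 RPKM. XPOT was 2.81 times XPO1 by mean RPKM, with 2.74 in replicate 1 and 2.87 in replicate 2, and 1.501 times it by reads not divided by length. XPO4, which exports the translation factor eIF5A, was at 35.0 and 37.0, and XPO5, the carrier of microRNA precursors, at 19.5 and 25.3. XPO7 was at 13.9 RPKM in replicate 1 and 19.97 in replicate 2, and ranked 3177 among named genes. XPO6, the carrier of actin with profilin, was at 5.32 and 6.34 RPKM. XPO7 thus stood below XPOT, CSE1L, XPO1, XPO4 and, in each sample, XPO5. RANBP17, the closest relative of XPO7, had 5 and 4 reads, or 0.06 and 0.07 RPKM. The second model listed as XPO1, of 226 bases on the opposite strand, held 18 and 7 reads. It lies 7954 bases past the higher coordinate of the first model, which is where that minus-strand model begins.

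Of the mRNA export genes all 6 measured members were detected, with a median of 53.6 RPKM. THOC7, a small coiled-coil subunit of the THO complex, was at 267 RPKM in replicate 1 and 273 in replicate 2. Its model of 952 bases was the shortest of the 57. THOC2, the largest subunit, was at 59.6 and 66.5 RPKM, THOC5 at 50.1 and 61.5, THOC1 at 26.9 and 29.0 and THOC3 at 16.4 and 19.7. THOC7 was 15.0 times THOC3 and 4.28 times THOC2 by mean RPKM. By reads not divided by length THOC7 was 9.02 times THOC3 and 0.854 times THOC2, so the order of THOC7 and THOC2 turned. NXT2, a partner of the NXF export receptors, was at 50.9 and 51.7. NXF1, NXT1 and THOC6 were not analysed here. Of the other Ran-binding genes, RANBP9, a scaffold of the CTLH ubiquitin ligase, was at 10.9 and 12.1 RPKM, above 66.5% of named genes, and its paralog RANBP10 was at 2.79 and 4.25, below their median.

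The 4 genes that were not detected were each a relative of a detected gene. NUP210L, KPNA7, RANBP17 and RANBP3L had 53, 10, 9 and 5 reads over both samples. Pooled over the samples, the exact 95% Poisson interval was 0.102 to 0.179 RPKM for NUP210L, 0.0401 to 0.154 for KPNA7, 0.0291 to 0.121 for RANBP17 and 0.0150 to 0.108 for RANBP3L. These intervals cover counting error only, since PCR copies are not independent molecules. The detected relatives NUP210, KPNA2, XPO7 and RANBP3 stood at means of 65.6, 198, 16.9 and 25.8 RPKM. Whether these few reads also match the detected relatives was not tested.

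Genes of the same pathway outside the symbol rule were read from a list of 52 symbols. It was chosen with earlier results of these data known. Some symbols are alternative names of the same gene, such as NDC1 and TMEM48, so the share matched is not a share of genes. A row was found for 29 symbols. Of these 28 were detected, and the median of the 29 was 35.8 RPKM. The detected share of the 12441 named genes was 60.4%. The highest were NPM1, a nucleolar shuttling protein, at 414 and 288 RPKM, NUTF2, which brings Ran back into the nucleus, at 206 and 197, and PCID2, of the TREX-2 export complex, at 130 and 120 (means 351, 201 and 125). The Y complex partners SEC13 and SEH1L were at 104 and 84.3 RPKM and at 55.0 and 54.3 RPKM. SYNE2, a giant linker of the nuclear envelope, was the one gene under 1 RPKM, at 0.09 and 0.12, and SYNE1 was at 1.23 and 1.44.

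Small RNAs lay inside the span of 3 of the 57 genes, on the same strand, and these small RNAs were far higher than the genes by RPKM. Their models are short, from 132 to 323 bases, which raises their RPKM for a given count. SNORA77, an H/ACA RNA that guides pseudouridylation, lies within RANBP1 on chromosome 15 and had 145796 reads in replicate 1 and 120965 in replicate 2. RANBP1 itself had 9385 and 4875 reads, so SNORA77 held 15.5 and 24.8 times the reads of the gene around it. SNORA23, within IPO7 on chromosome 5, had 60346 and 48656 reads, beside 63107 and 42284 for IPO7. SNORA77 had more reads than RANBP1 in both samples, so the RANBP1 counts cannot include all of them. SCARNA7, a Cajal body RNA within KPNA4 on chromosome 9, had 9386 and 4995 reads, beside 14418 and 10472 for KPNA4. Less all of these, KPNA4 would still stand above KPNA1 in both samples. Whether any reads were counted for both a gene and its small RNA was not tested.

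**Figure D3:**
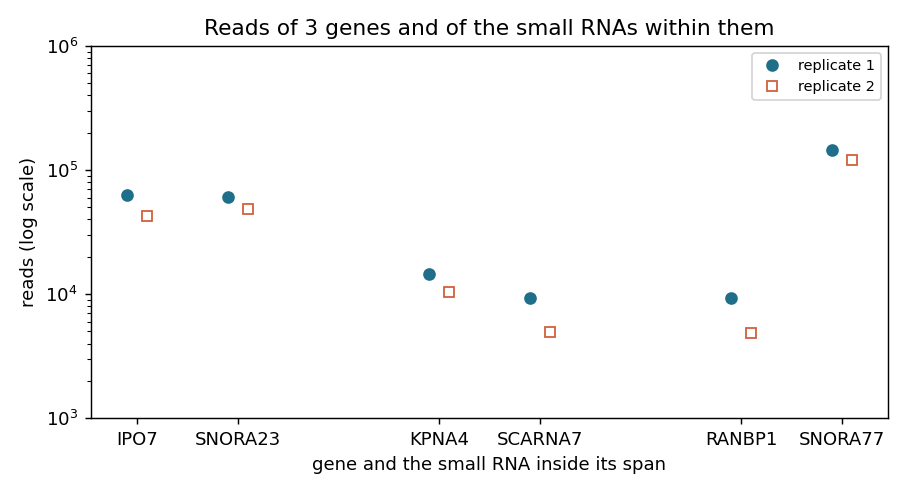
Reads (log scale) of IPO7, KPNA4 and RANBP1 and of the small RNA inside each, in replicate 1 (filled circles) and replicate 2 (open squares). SNORA77 lies more than a decade above RANBP1, SNORA23 lies level with IPO7, and SCARNA7 lies below KPNA4.

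Between the samples, RANBP1 and IPO7 were lower in replicate 2 while the small RNAs within them were higher there. Small RNAs as a class also took a larger share of reads in replicate 2, 34.4% against 32.9%. As deposited, KPNA4 and SCARNA7 were both lower in replicate 2. Less all reads of SCARNA7, KPNA4 would be higher there, at 49.5 RPKM against 34.8 in replicate 1. This is the largest possible subtraction. The counts of RANBP1, and in replicate 2 those of IPO7, cannot hold all reads of their small RNAs. Whether the counts of KPNA4 do was not tested. The ratio of replicate 2 to replicate 1 in reads per total reads was 0.678 for RANBP1, with an exact 95% binomial counting interval of 0.655 to 0.703, whereas it was 1.08 for SNORA77 (1.08 to 1.09). For IPO7 this interval was 0.865 to 0.886, and for SNORA23 1.04 to 1.07. For KPNA4 the interval was 0.925 to 0.973 and for SCARNA7 0.672 to 0.720. These intervals cover counting error only, and with 1 library on each side they compare the libraries and not conditions.

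The samples were close for most of the genes. Of the 51 genes averaging 5 RPKM or more, 50 lay within 1.5-fold, or 98.0%, where 97.1% of 5964 named genes at that level did. The exception was KPNB1, at 19.2 and 33.4 RPKM and 1910 and 2547 reads, with a counting interval of the ratio of 1.64 to 1.85. Below that level, the detected genes RANBP10 and IPO13 differed by 1.52 and 1.51 times, and the 4 undetected genes rest on few reads. Among the genes that were higher in replicate 1, RANBP1 differed most, followed by NUP37 with an interval of 0.704 to 0.777. The counting interval excluded 1 for 42 of the 51 genes, or 82.4%, and for 58.6% of the named genes. The 51 genes also had more reads, with a median of 6844 per gene over both samples against 2653 for named genes, which narrows the interval. A total of 35 of the 51 genes, 68.6%, were higher in replicate 2, where 59.3% of named genes were. Each side of these differences is a single sample, so no p-value is given.

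**Figure D4:**
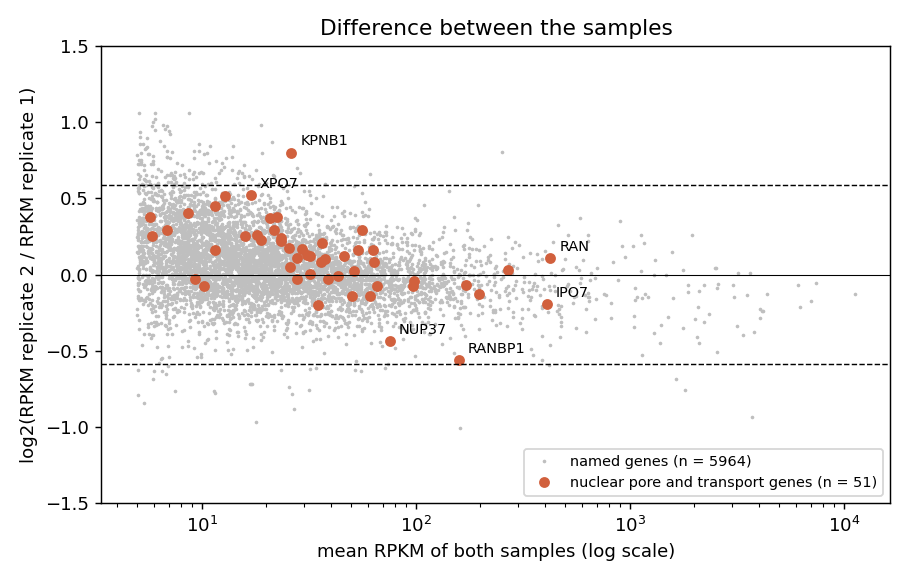
Difference between the samples, as log2 of RPKM in replicate 2 over RPKM in replicate 1, by mean RPKM (log scale), for 51 nuclear pore and transport genes (orange) and 5964 named genes (grey) of mean RPKM at least 5, with dashed lines at 1.5-fold. KPNB1 is the one orange point outside the dashed lines, and RANBP1 lies just inside the lower one.

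The genes were spread over 24 chromosomes, with 12 on chromosome 1, 5 on chromosome 3 and 4 each on chromosomes 2, 4 and Z. No 2 of them were closer than 496711 bases, the gap between RANBP3L and NUP155 on chromosome Z. Those neighbours stood at means of 0.045 and 19.0 RPKM. RANBP1 and RAN, whose products act together, lie 1.89 Mb apart on chromosome 15, and NUP188 and NUP214 lie 0.730 Mb apart on chromosome 17. NUP188 also overlaps PPP2R4, a gene on the same strand that had 2287 reads in each sample beside 2465 and 2695 for NUP188, so its level is uncertain where the counting could split the reads of both. NUP133 overlaps RAB4A on the opposite strand, which had 49 and 33 reads, few beside the 5103 and 4195 of NUP133. A model with only a gene identifier as its symbol overlaps the end of NUP37 on the opposite strand and had 0 reads in both samples.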

How the data were processed

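Per the labels' protocols, total RNA was treated with DNase, depleted of ribosomal RNA, fragmented with RNase III and made into SOLiD libraries, pooled 2 per lane. RNase III prefers double-stranded RNA, so folded or short RNAs can be over- or underrepresented. The authors deposited 1 table with raw read counts and RPKM values for each gene in each sample, as the headers name them. The deposited RPKM values were recomputed from the counts, the gene length and 1 total per sample within 0.006 plus rounding for all 16464 rows. These totals, 39711334 in replicate 1 and 30405308 in replicate 2, lie 0.88% and 0.86% under the summed reads. The sources used here name no aligner, strand setting, genome build or annotation, so coordinates are as deposited.

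Of 17934 rows, 1470 with an empty symbol and with 0 reads were left out. Rows with only a gene identifier as symbol were kept among the rows analysed. RPKM was the measure, and counts gave depth and counting intervals (95% exact). Member levels were set beside 12441 named genes, 1 model per symbol. Every member is named, with small RNAs inside a member's span, and pathway genes by a rule on rank; some ratios within complexes, SEC13, SEH1L and SYNE1 were chosen after the values were seen. Members and lists were chosen with earlier results of these data known. All 57 symbols matched the RefSeq gene table of GRCg7b, 2 of them through synonyms. No gene or protein sequences were used here. The functions were tested on simulated data. Alternatives were the replicate left out, thresholds, pseudocount, model choice, model length and scaling. Scripts ran in Python 3.11.15 (scipy 1.17.1, pandas 2.3.3, numpy 2.4.6, matplotlib 3.10.9).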

Additional observations from a re-analysis of the deposited data

How the results depend on the processing

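The count of detected genes was 53 in each sample alone, with the shortest model of XPO1 and after rescaling. It was also 53 at an RPKM of at least 0.5, and 50 at an RPKM of at least 5. No share of named genes is given for these settings, so whether these counts are usual was not tested. The median level, 4.85 in log2(RPKM + 1), lay between 4.85 and 5.01 when either replicate was left out. Rescaled to the reads of genes that are neither small RNAs nor mitochondrial, it was 5.56. That scaling raises every gene in a sample alike, by 0.71 on the log2 scale in replicate 1 and 0.73 in replicate 2, so it does not alter the order of genes within a sample. The count within 1.5-fold was 50 of 51, where 97.1% of named genes of mean RPKM at least 5 lay within it. Within the narrower fold tried the count was 41. No share of named genes was taken at that fold, so whether 41 of 51 is usual was not tested. Without the 7 genes whose span overlaps another model, an alternative added after seeing the data, 46 of 50 genes were detected and the median was 4.76. The order of 11 neighbouring pairs of paralogs was kept by RPKM with either replicate alone. It was also kept by reads not divided by length, as a mean of both samples. By the same measure, also added after seeing the data, the log2 ratio of THOC7 to THOC2 turned to -0.23. It was 2.10 by RPKM, as their models differ in length. The paralogs KPNA5 and KPNA6 had 1245 reads each in replicate 1, so reads did not order them there. In replicate 1 IPO7 less all reads of SNORA23, at 19.1 RPKM, would stand below IPO8, at 43.3. In replicate 2 this subtraction is not possible, as SNORA23 had more reads than IPO7, 48656 against 42284. Whether the IPO7 counts hold a part of these reads was not tested. With 2 samples of 1 group no paired analysis was possible because there was no second group. Levels rest on gene models whose completeness was not tested, and whether reads were shared between paralogs was not tested.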

Other observations

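Among named genes, chromosome class went with the sign of the difference between samples. For the nuclear pore and transport genes the counts were too small to show this. On chromosomes 1 to 5 and Z, 19 of 29 nuclear pore and transport genes of mean RPKM at least 5 were higher in replicate 2, or 65.5%, and on the other numbered chromosomes 16 of 22 were, or 72.7%. Among named genes at that level these shares were 53.6% of 3049 and 65.1% of 2915. This split was chosen after the data were seen, rests on 1 sample on each side and has no test.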
